A study of Mus musculus with 9 samples.

Results

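The comparison set immature natural killer (NK) cells from bone marrow against immature NK cells from spleen of the same transgenic cross. It used 6 of the 9 arrays of the series: 3 of NKDxIL15tg bone marrow and 3 of NKDxIL15tg spleen, chosen by the organ and genotype in their titles. The other 3 arrays carried RNA of NK cells from IL15tg spleen, described by the submitters as mature. They were no part of the group means compared. They entered the estimate of the spread between replicates, the filter on brightness and the choice of a gene's probe set. Every mouse thus carried the IL15 transgene, and both groups compared carried NKD in addition, so organ was the only labelled difference between them. NKD is a transgenic line known for its shortage of mature NK cells. The mice's age, the promoters of the transgenes, the number of animals behind a sample, any pooling and the markers used in cell sorting are not given in the sources used here. Replicates were labelled as biological replicates 1 to 3. RNA from sorted cells was amplified in 2 cycles from its 3′ end and hybridised to Affymetrix mouse arrays.

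NK cells are lymphocytes that kill infected and transformed cells with perforin and granzymes and secrete interferon gamma. They arise from lymphoid progenitors in bone marrow, acquire their receptors stepwise, and leave for blood and spleen, a step in which the sphingosine 1-phosphate receptor S1PR5 is known to act. Bone marrow is also where neutrophils and B cells are made, whereas spleen holds mature B cells and antibody-secreting cells, so genes of those lineages were kept apart from NK cell genes.

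The largest differences between the organs were in genes of other blood lineages. B cell and plasma cell transcripts (Jchain, Ms4a1, Pou2af1, Cr2 and immunoglobulin kappa) were lower in the bone marrow samples, and transcripts of early neutrophil granules (Mpo, Prtn3 and Ctsg) were higher. They passed limma, a linear model test for arrays, when the dimmer probe sets were left out; over all probe sets, with intensities floored at 16, 1 kappa probe set passed and the others did not. Of 170 measured genes in 9 NK cell lists, none passed in either test with all arrays. Among them S1pr5 and Il18r1 were lower in bone marrow without overlap, by more than Cr2 (log2 changes of -1.91 and -1.73, against -1.67). Changes are given throughout as log2 of bone marrow over spleen, with the standard error of the fit after ±, from intensities floored at 16. A probe set is a group of array oligonucleotides meant to read 1 transcript, although some match several genes.

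Bone marrow replicate 3 stood apart from the other 8 arrays. Its median intensity was 64.9 against 56.6 to 59.1, its ranks correlated with those of its fellow replicates at a mean of 0.936, against 0.956 to 0.981 for other arrays, and it exceeded all other arrays more than 2-fold for 2540 probe sets (5.64%), against at most 18 for any other array. By brightest probe set these were 1268 genes (6.97%). For example, Clock, a circadian transcription factor, read 219.6, 219 and 3311 in the bone marrow arrays and 197, 214 and 234 in spleen, and E2f5 read 428, 535 and 7996 in bone marrow and 401, 468 and 584 in spleen. Of those genes 731 had further probe sets, and 86 of these 1424 (6.04%) stood apart as well, close to the 5.64% of all probe sets. Thus the excess mostly did not extend to other probe sets of the same genes. Csf1r, the macrophage growth factor receptor, at 634, 656 and 2599.8, Cd8a, at 108, 107 and 519, and Rag2, at 76.1, 104 and 393, were high in that array alone. Only 5 of the 170 NK cell genes stood apart.

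**Figure D1:**
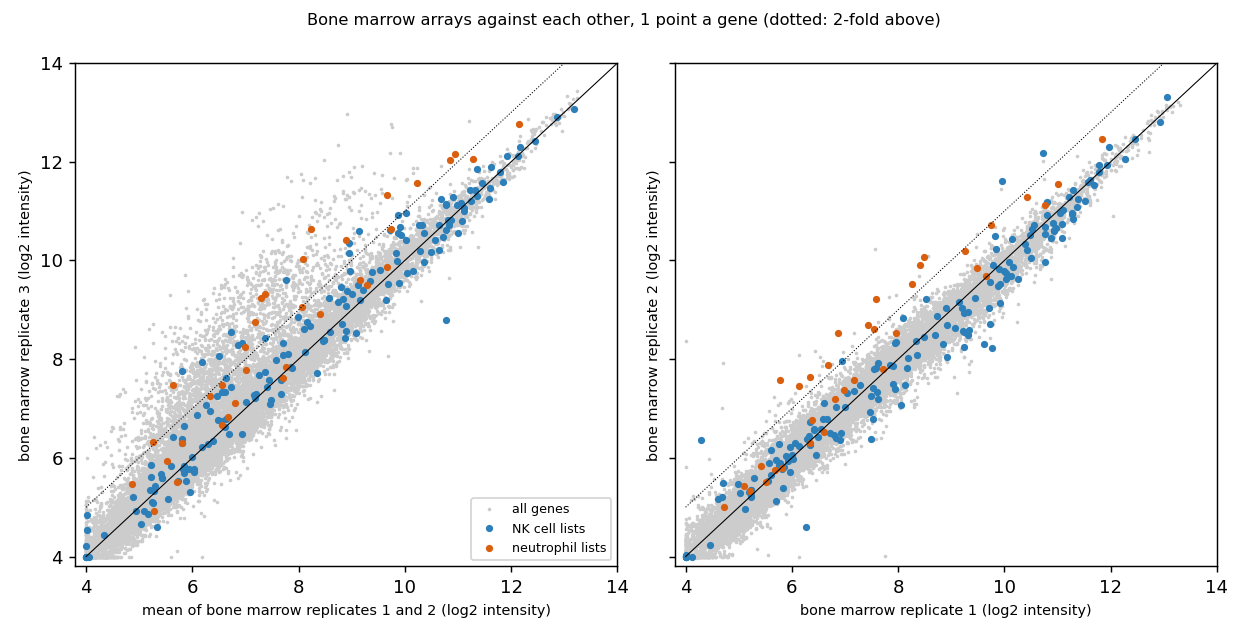
Log2 intensity of each gene in bone marrow replicate 3 against the mean of replicates 1 and 2 (left) and in replicate 2 against replicate 1 (right); grey points are all genes, blue the NK cell lists and orange the neutrophil lists, with lines at equality (solid) and 2-fold above (dotted). A cloud of genes lies above the dotted line in the left panel and few do in the right, while most NK cell genes lie near equality in both.

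Over all 45037 probe sets that are not controls, limma called 2 at an adjusted p below 0.05 (0.00444%), both lower in bone marrow. One was a probe set annotated to several immunoglobulin kappa genes and the other read Matn2, which encodes the extracellular matrix protein matrilin 2. Without bone marrow replicate 3, which stood apart from the other arrays, limma called 0, with a lowest adjusted p of 0.145. With the replicate number as a block it also called 0, with a lowest adjusted p of 0.274. Unadjusted p-values were below 0.05 for 4969 probe sets with all arrays (11.0%; 3023 higher and 1946 lower), for 4040 without bone marrow replicate 3 (2542 higher and 1498 lower) and for 5756 under the block. Leaving out IL15tg spleen replicate 3, NKDxIL15tg spleen replicate 1, NKDxIL15tg spleen replicate 3 or bone marrow replicate 2 likewise gave 0 calls, and leaving out IL15tg spleen replicate 1 gave 11.

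When the 40% of probe sets with the lowest mean were left out, a filter that uses all 9 arrays, 14 of 27022 passed (0.0518%). Of these, 11 were lower in bone marrow (0.0407%) and 3 were higher (0.0111%). The same 14 passed with and without bone marrow replicate 3. They were 11 probe sets of 10 single genes and 3 that each match several kappa genes. Below, "among the brighter probe sets" refers to this fit. The filter cut was a mean log2 of 5.58, so a high group could lift a probe set past it. Prtn3 and Ctsg averaged 5.06 and 5.10 in IL15tg spleen, 6.06 and 5.89 in NKDxIL15tg spleen, and 9.31 and 9.35 in bone marrow. The called Matn2 probe set had a mean of 5.61, with 4.08 in IL15tg spleen and 7.08 in NKDxIL15tg spleen. Being among the brighter probe sets is therefore no separate support for such genes. A gene was represented by its brightest probe set: 9 of 12925 brighter genes passed in this way (0.0696%), Matn2 being called only through a dimmer one. Leaving out 1 array at a time changed the count: 1 without NKDxIL15tg spleen replicate 1, 4 without spleen replicate 3, 4 without bone marrow replicate 2, and 10 to 15 without any other. The kappa probe set called over all probe sets passed in all 9 of those fits, and the other kappa probe sets that match several genes in 6 and 4. The brightest Ms4a1 probe set and the called Matn2 probe set passed in 8, and the other called Ms4a1 probe set in 3. Jchain and Igkv8-30 passed in 7, Prtn3, Cr2 and Pou2af1 in 4, and Macir, Mpo and Ctsg in 2. With the 6 NKDxIL15tg arrays alone, 13 brighter probe sets passed, all lower, and Mpo, Prtn3 and Ctsg did not. With the replicate block 23 passed (9 higher and 14 lower), 13 of them among the 14.

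Irrespective of a threshold, all 3 bone marrow arrays lay above all 3 spleen arrays for 2091 of 18193 genes (11.5%) and below them for 959 (5.27%). Changes of 2-fold or more numbered 207 higher (1.14%) and 37 lower (0.203%). Without bone marrow replicate 3 they numbered 34 in each direction (0.187%). The median change over all genes was 0.04 and the median standard error was 0.14. These shares are the background for the gene lists below.

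**Figure D2:**
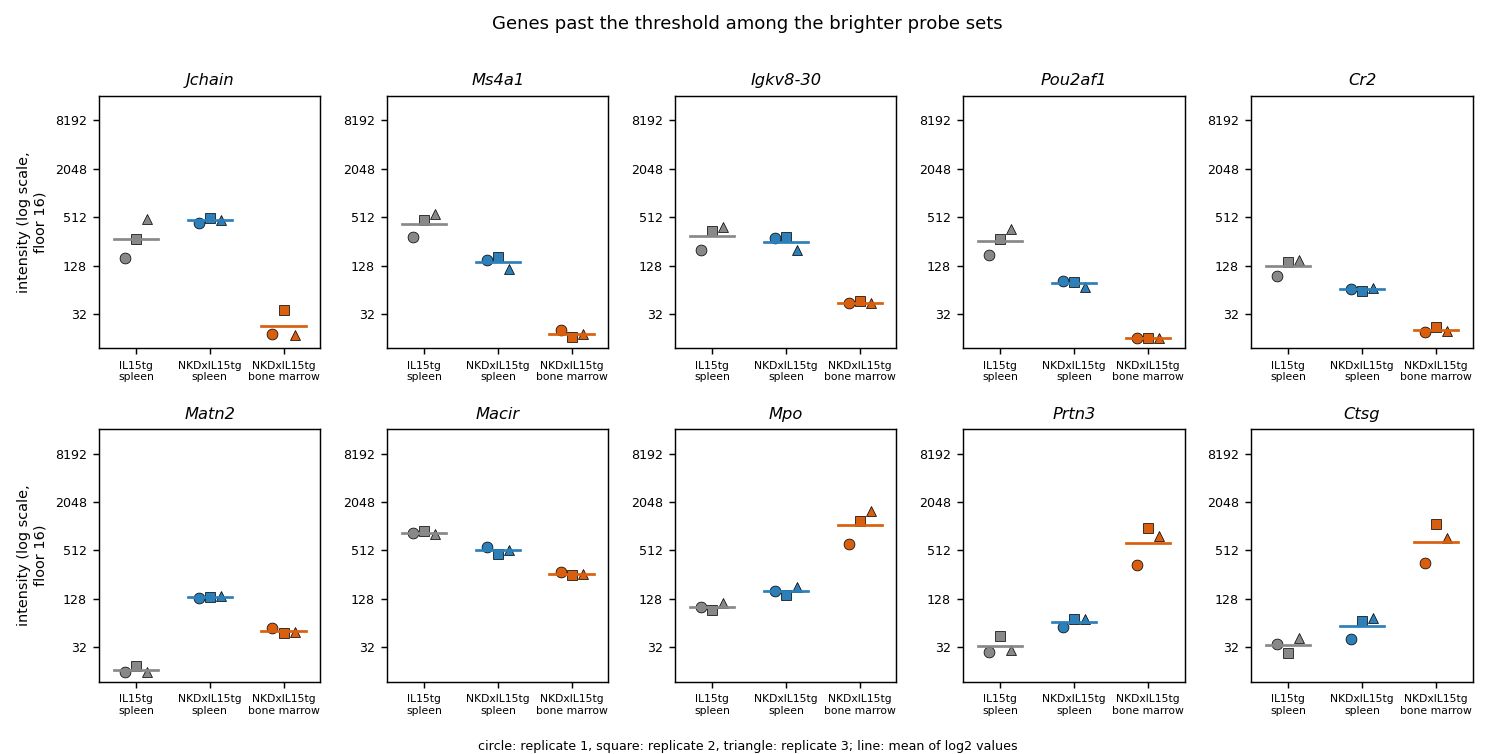
Intensity on a log scale (vertical axis, floored at 16) for the 10 genes called among the brighter probe sets, in IL15tg spleen (grey), NKDxIL15tg spleen (blue) and NKDxIL15tg bone marrow (orange). Circles, squares and triangles are replicates 1, 2 and 3 and the line is the mean of log2 values; in 7 panels the bone marrow points lie below those of NKDxIL15tg spleen, and for Mpo, Prtn3 and Ctsg they lie above, with no overlap in any panel.

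The B cell genes that passed code for surface proteins, a regulator and parts of antibodies. Jchain, the chain that joins immunoglobulin units in secreted IgM and IgA, read 435, 503 and 468 in spleen replicates 1 to 3 and 18.0, 35.9 and 17.7 in the bone marrow replicates. Its change was -4.38 ± 0.42 (-4.20 without bone marrow replicate 3), with a limma adjusted p of 0.0947 over all probe sets and 0.00944 among the brighter ones, and 0.00127 to 0.442 over all alternatives. Every spleen array was far above every bone marrow array, and bone marrow replicate 2 was the highest of its group.

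Ms4a1, which encodes the B cell surface protein CD20, read 148, 162 and 115 in spleen and 20.4, 16.3 and 18.2 in bone marrow, close to the floor. The change was -2.94 ± 0.25, with and without bone marrow replicate 3, with a limma adjusted p of 0.0622, 0.00506 among the brighter probe sets and 0.00103 to 0.579 over the alternatives. Its other called probe set changed by -2.50 ± 0.28, in the same direction. That probe set read 13.3, 12.7 and 16.9 in bone marrow, at or below the floor or just above it, so the floor limits its change. Pou2af1, a coactivator of immunoglobulin genes, read 82.8, 79.2 and 70.0 in spleen, and all 3 bone marrow arrays were below the floor, at 11.2, 11.7 and 11.6. Its fitted change of -2.27 ± 0.24 is set by the floor (limma adjusted p = 0.101, 0.0141 among the brighter probe sets, 0.00133 to 1.00 over the alternatives). Cr2, the complement receptor CD21 of mature B cells, read 65.2, 62.2 and 67.5 in spleen and 19.2, 22.2 and 19.8 in bone marrow, a change of -1.67 ± 0.17 (limma adjusted p = 0.0947, 0.0141 among the brighter probe sets, 0.00164 to 1.00 over the alternatives).

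The immunoglobulin kappa probe sets moved together. The largest change of these was in the probe set called over all probe sets, which read 1021, 774 and 744 in spleen and 51.1, 70.5 and 43.7 in bone marrow. That is a change of -3.96 ± 0.25 (limma adjusted p = 0.0158, 0.000396 to 0.397 over the alternatives), or -3.80 without bone marrow replicate 3. The 2 other kappa probe sets that match several genes changed by -3.23 ± 0.33 and -2.40 ± 0.26, and Igkv8-30, a variable segment with its own probe set, changed by -2.51 ± 0.25 (limma adjusted p = 0.0947, 0.0109 among the brighter probe sets, 0.00146 to 0.397 over the alternatives). Kappa variable segments are closely alike in sequence, so these probe sets may read several genes and are not separate measurements.

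Of the 20 measured genes of the mature B and plasma cell list, 17 were among the brighter probe sets. None was called by limma over all probe sets, where 7 had an unadjusted p below 0.05 in the lower direction and 1 in the higher; 4 were called lower among the brighter ones. The median change of the list was -0.09 (-0.12 without bone marrow replicate 3), against 0.04 for all genes, and 8 of the 20 did not overlap in the lower direction. The list was therefore uneven. Ighm, the mu heavy chain, read 2703, 2028 and 1468 in spleen and 1039, 611 and 876 in bone marrow without passing (change -1.29 ± 0.29, limma adjusted p = 0.298). These are values of the brightest of its 11 probe sets, and the change ranged from -1.51 to -0.17 over the alternatives. Cd79b, a signalling chain of the B cell receptor, read 54.5, 68.3 and 54.6 in spleen and 24.6, 20.4 and 23.3 in bone marrow (change -1.37 ± 0.29, limma adjusted p = 0.281). Its partner Cd79a, at 50.8, 42.0 and 39.2 in spleen and 39.0, 38.9 and 43.8 in bone marrow, overlapped between the organs. Pax5, the B cell identity factor, read 48.8, 52.7 and 57.9 in spleen and 67.5, 64.3 and 89.6 in bone marrow, with no bone marrow array below spleen. The summed intensity of the list was 5943 to 7236 in spleen and 4308, 4193 and 6191 in bone marrow replicates 1 to 3. Only bone marrow replicate 3, which stood apart from the other arrays, reached the spleen range. In samples of sorted cells, fewer cells of a type and less RNA per cell cannot be told apart, here or for any list below.

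The IL15tg spleen arrays held these transcripts too: Ms4a1 read 292, 475 and 557 there, Pou2af1 172, 272 and 360.1 and Jchain 161, 271 and 486. For Ms4a1 and Pou2af1 the bone marrow samples were thus the lowest and the mature spleen samples the highest of the 3 groups.

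MHC class II genes, whose products present peptides on B cells and dendritic cells, did not pass the test, and the changes within their list lay on both sides of 0. The invariant chain Cd74 read 599.6, 425 and 413 in spleen and 263, 182 and 211 in bone marrow (change -1.13 ± 0.23, limma adjusted p = 0.280). H2-Aa, H2-Ab1 and H2-Eb1 had log2 differences of -0.97, -0.81 and -0.60, also without overlap. H2-Ob, part of a class II chaperone of B cells, read 57.8, 53.2 and 54.7 in spleen and 19.9, 26.1 and 30.7 in bone marrow. Of the 17 measured genes of the list, 5 did not overlap in the lower direction and 3 in the higher one, and the median change was -0.02. Limma called 0 of them, and 7 had an unadjusted p below 0.05 (5 lower and 2 higher).

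Genes of the primary granules of neutrophils, made in their precursors in bone marrow, made up the calls in the other direction. Because Mpo, Prtn3 and Ctsg were the only calls among the brighter probe sets in that direction, the 250 bases before their RefSeq transcription starts (GRCm38.p6) are shown, with those of 2 genes lower in bone marrow for contrast. Capitals mark GAGGAA, the core of the box bound by PU.1, a factor of myeloid and B cells, on either strand.

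Mpo (chr11:87793534-87793783, plus strand): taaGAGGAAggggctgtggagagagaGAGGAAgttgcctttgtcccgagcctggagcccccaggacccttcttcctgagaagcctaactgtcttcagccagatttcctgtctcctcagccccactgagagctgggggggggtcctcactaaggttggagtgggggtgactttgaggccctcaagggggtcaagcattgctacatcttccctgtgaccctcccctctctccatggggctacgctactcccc
Prtn3 (chr10:79879417-79879666, plus strand): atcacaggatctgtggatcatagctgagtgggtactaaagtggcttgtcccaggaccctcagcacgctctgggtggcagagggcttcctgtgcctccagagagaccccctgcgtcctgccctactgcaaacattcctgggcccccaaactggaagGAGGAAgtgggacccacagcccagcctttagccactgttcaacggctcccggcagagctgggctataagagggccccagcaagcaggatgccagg
Ctsg (chr14:56102575-56102824, minus strand): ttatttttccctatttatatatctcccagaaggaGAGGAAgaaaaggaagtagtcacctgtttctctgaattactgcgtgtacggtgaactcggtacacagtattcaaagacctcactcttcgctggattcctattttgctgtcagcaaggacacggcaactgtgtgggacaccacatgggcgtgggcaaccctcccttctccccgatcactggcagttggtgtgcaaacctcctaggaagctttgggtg
Jchain (chr5:88527898-88528147, minus strand): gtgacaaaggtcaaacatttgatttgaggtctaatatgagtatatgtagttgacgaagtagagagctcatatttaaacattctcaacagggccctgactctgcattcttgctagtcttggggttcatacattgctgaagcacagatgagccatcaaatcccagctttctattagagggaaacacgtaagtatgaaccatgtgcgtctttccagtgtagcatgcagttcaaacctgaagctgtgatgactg
Pou2af1 (chr9:51213440-51213689, plus strand): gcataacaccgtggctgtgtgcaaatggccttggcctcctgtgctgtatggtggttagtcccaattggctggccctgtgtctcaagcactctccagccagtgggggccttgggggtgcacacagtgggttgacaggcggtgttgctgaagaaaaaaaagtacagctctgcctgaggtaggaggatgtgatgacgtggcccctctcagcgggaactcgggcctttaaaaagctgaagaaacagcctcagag

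The Mpo window held 2 matches, which begin 247 and 224 bases before the start, and the Prtn3 and Ctsg windows held 1 each, at 95 and 216 bases. The Jchain and Pou2af1 windows held none. Neither did those of Camp, Ngp and S100a9, neutrophil genes with higher values in bone marrow that are described below, whereas Elane, Ltf and Lcn2 held 1 each and S100a8 held 2. Of 27025 mouse promoters of the same length, 23.1% held a match, so such a match is common. The octamer ATGCAAAT, present in immunoglobulin promoters and searched on both strands, was in none of these windows and in 1.61% of all promoters. A match is a description of letters and not a binding site.

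Mpo, the myeloperoxidase of primary granules, read 159, 142 and 182 in spleen and 613, 1178 and 1588 in bone marrow. The change was 2.71 ± 0.31 (2.41 without bone marrow replicate 3), with a limma adjusted p of 0.116, 0.0175 among the brighter probe sets and 0.00154 to 0.518 over the alternatives. The lowest bone marrow array, replicate 1, was still well above the highest spleen array. Prtn3, a serine protease of the same granules, read 57.0, 71.5 and 72.8 in spleen and 339, 964 and 779 in bone marrow (change 3.25 ± 0.38, 3.10 without bone marrow replicate 3; limma adjusted p = 0.116, 0.0175 among the brighter probe sets, 0.00204 to 0.515 over the alternatives). Ctsg, which encodes cathepsin G, read 41.0, 68.5 and 74.0 in spleen and 359, 1081 and 723 in bone marrow (change 3.47 ± 0.42, 3.39 without bone marrow replicate 3; limma adjusted p = 0.117, 0.0184 among the brighter probe sets, 0.00311 to 0.518 over the alternatives). For all 3 genes the bone marrow arrays differed among themselves more than the spleen arrays did, and replicate 1 was the lowest.

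Elane, neutrophil elastase, read 79.8, 85.0 and 68.7 in spleen and 127, 166 and 430.3 in bone marrow, and its change was 1.43 ± 0.41, and 0.90 without bone marrow replicate 3 (limma adjusted p = 0.344). Ms4a3, a membrane protein of granulocyte precursors, read 51.6, 48.4 and 52.3 in spleen and 117, 371 and 198 in bone marrow (change 2.01 ± 0.36, limma adjusted p = 0.265). Of the 13 measured genes of the early neutrophil list, 9 did not overlap in the higher direction and 1, Fcna, in the lower one. The median change was 1.43 (1.32 without bone marrow replicate 3; 0.92 to 2.04 over 35 settings), and 7 genes were 2-fold higher in bone marrow replicates 1 and 2 alone. The summed intensity was 1837 to 2189 in spleen and 3012 to 6689 in bone marrow.

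Genes of later neutrophil stages differed in the same direction with more spread. Of 21 measured, 15 did not overlap in the higher direction and none in the lower, and the median change was 1.58 (1.16 without bone marrow replicate 3; 1.15 to 2.11 over 35 settings). Limma called 0 of them over all probe sets or among the brighter ones, and 14 had an unadjusted p below 0.05 over all probe sets, each in the higher direction. Camp, the antimicrobial peptide of secondary granules, read 204, 335 and 646 in spleen and 1380.3, 2489 and 4203 in bone marrow (change 2.79 ± 0.51, 2.39 without bone marrow replicate 3). Its limma adjusted p was 0.267, 0.178 among the brighter probe sets and 0.0395 to 0.599 over the alternatives. Ngp, another secondary granule protein, read 432, 442 and 818 in spleen and 1748, 2234 and 4543 in bone marrow (change 2.28 ± 0.38, limma adjusted p = 0.253). With the replicate block, among the brighter probe sets, Camp and Ngp passed (limma adjusted p = 0.0469 each), as did Cybb, a subunit of the phagocyte oxidase, and Mgst1. In both organs replicate 3 read highest and replicate 1 lowest for Camp and Ngp.

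Ltf, which encodes lactoferrin, read 172, 202 and 383 in spleen and 716, 923 and 2571 in bone marrow (change 2.33 ± 0.50, limma adjusted p = 0.287). Lcn2, an iron-chelating protein of secondary granules, read 56.9, 90.6 and 128 in spleen and 249, 368 and 1598 in bone marrow, with bone marrow replicate 3 far above the rest (change 2.60 ± 0.66, 1.80 without it). S100a8 and S100a9, the paired calcium-binding proteins of neutrophils and monocytes, differed by less. S100a8 read 941, 1435 and 3043 in spleen and 3643, 5666 and 6955 in bone marrow (change 1.71 ± 0.51), and S100a9 read 661, 1069 and 1847 in spleen and 2069, 2998 and 4240.4 in bone marrow (change 1.44 ± 0.46). Spleen replicate 3 came near bone marrow replicate 1 for both. The summed intensity of the list was 3699 to 8963 in spleen and 12208 to 31731 in bone marrow, and 6 of its 21 genes (28.6%) were more than 2-fold higher in bone marrow replicate 3 than in any other array.

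**Figure D3:**
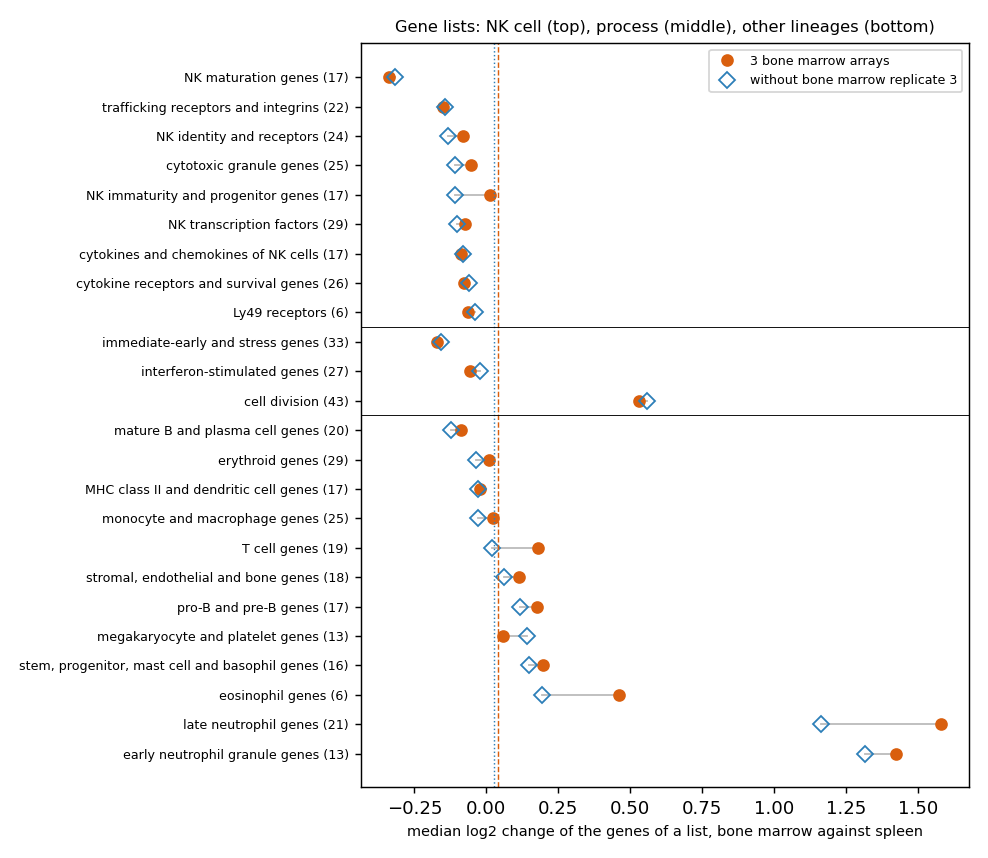
Median log2 change of the measured genes of each list (horizontal axis, bone marrow against spleen; number of genes in brackets), with all 3 bone marrow arrays (orange) and without replicate 3 (blue diamonds). Dashed and dotted lines are the medians of all genes, 0.04 and 0.03; the 2 neutrophil lists lie above 1 in both settings, cell division lies near 0.5, and the NK cell lists lie between -0.34 and 0.01.

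Other lineages differed less. Among monocyte and macrophage genes, 25 measured, 5 did not overlap in the higher direction and 3 in the lower, with a median change of 0.02. Limma called 0 of them, and 5 had an unadjusted p below 0.05 in each direction. With the replicate block, among the brighter probe sets, a Lyz1 probe set other than the brightest passed (change of 2.35, limma adjusted p = 0.0413). Lyz2, lysozyme of monocytes and neutrophils, read 80.6, 119 and 154 in spleen and 228, 449.9 and 1293 in bone marrow, and Lyz1, a near-identical gene whose probe sets can cross-read it, read 228, 296 and 528 in spleen and 718, 1493 and 3175 in bone marrow. Cd14 and Adgre1, markers of monocytes and macrophages, overlapped between the organs, at changes of -0.03 and -0.03. C1qc, a complement subunit of macrophages, was instead lower, at 67.3, 71.8 and 85.7 in spleen and 36.0, 42.4 and 41.8 in bone marrow (change -0.90 ± 0.12, limma adjusted p = 0.173). Genes of pro-B and pre-B cells had a median change of 0.18 (0.12 without bone marrow replicate 3): Rag1 was at or near the floor in every array, Vpreb1 read 37.3, 29.9 and 31.7 in spleen and 41.0, 58.3 and 42.7 in bone marrow, and Dntt and Ebf1 overlapped.

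Among erythroid genes, 29 measured with a median change of 0.01, Alas2, the first enzyme of haem synthesis in red cell precursors, read 123, 229.9 and 163 in spleen and 64.8, 79.4 and 82.0 in bone marrow (change -1.15 ± 0.21, limma adjusted p = 0.279). Gata1, Klf1 and Epor, regulators of that lineage, overlapped. T cell genes had a median change of 0.18 (0.02 without bone marrow replicate 3). Cd3g, a chain of the T cell receptor complex, read 72.6, 458 and 60.1 in spleen and 95.6, 251 and 113 in bone marrow, and Cd3d read 191, 651 and 321 in spleen and 316, 608 and 346 in bone marrow. For both, replicate 2 was the highest array in each organ. Of 6 eosinophil genes, all dim and none among the brighter probe sets, 4 did not overlap in the higher direction and 0 in the lower. Their median change was 0.46 (0.20 without bone marrow replicate 3). Of 16 stem, progenitor, mast cell and basophil genes, 5 did not overlap in the higher direction and 1 in the lower, with a median change of 0.20. Limma called 0 of both lists. Over the 12 lists of other lineages, 202 genes were measured, 145 of them among the brighter probe sets, and 7 passed there (3 higher and 4 lower), each of them named above.

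**Figure D4:**
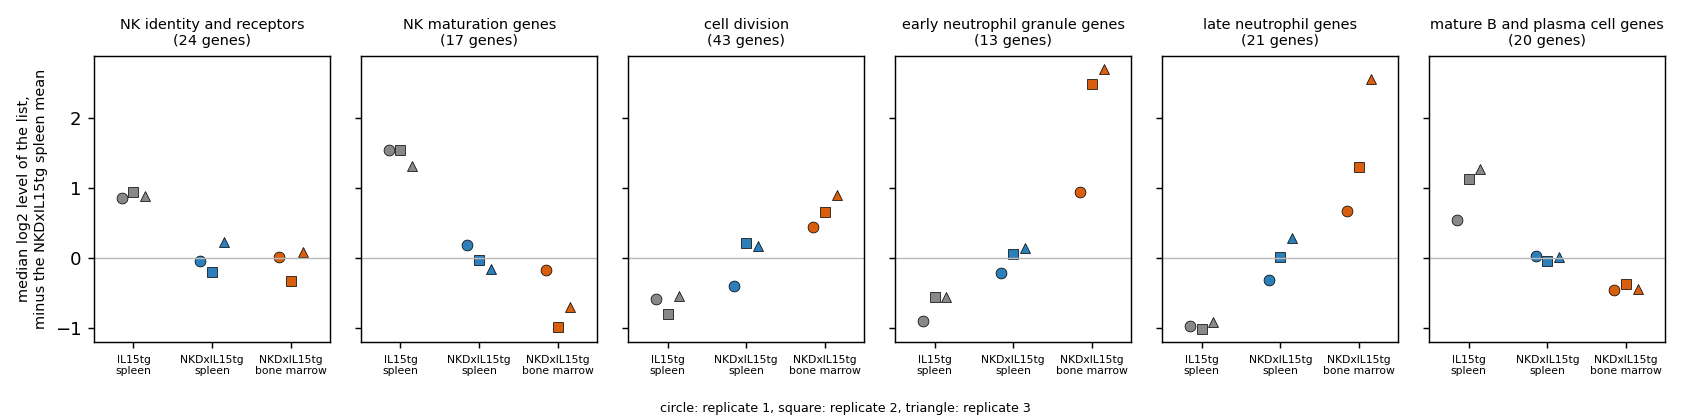
Median log2 level of the genes of 6 lists in each array, minus the NKDxIL15tg spleen mean (vertical axis), by group. Circles, squares and triangles are replicates 1, 2 and 3; the bone marrow arrays lie above NKDxIL15tg spleen for cell division and both neutrophil lists and below it for mature B and plasma cell genes; for NK maturation genes bone marrow replicate 1 lies just under the lowest spleen array, and for NK identity genes the groups overlap.

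The NK cell identity of the samples was checked on defining markers. Ncr1, the activating receptor NKp46, read 1021, 1139 and 1075 in spleen and 1215, 789 and 1464 in bone marrow, and Eomes, a transcription factor of NK cells, read 2779.7, 2279 and 2479 in spleen and 2650.5, 2183 and 2752 in bone marrow. Both overlapped between the organs. Gzma, which encodes granzyme A, read 10099, 11276 and 10302 in spleen and 8524, 10233 and 8634 in bone marrow. Cd3e, a chain of the T cell receptor complex, read 85.9, 54.4 and 41.0 in spleen and 67.8, 47.0 and 87.8 in bone marrow. Cd3d, another chain of that complex described above, read higher than Cd3e in every array of the compared groups, and Cd3g did in most. The Cd3e values alone therefore do not show that T cell transcripts were absent.

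Over the 9 NK cell lists, 152 of the 170 measured genes were among the brighter probe sets, and 0 passed limma there or over all probe sets. An unadjusted p below 0.05 was found for 34 of the 170, 29 lower and 5 higher. Of the 170, 6 did not overlap in the higher direction and 25 in the lower, beside 11.5% and 5.27% of all genes. The median change was -0.10 (-0.11 without bone marrow replicate 3). In bone marrow replicates 1 and 2 alone, 5 of the 170 were 2-fold lower and 0 were 2-fold higher. Within pairs of equal replicate number, 62 of the 170 (36.5%) were lower in bone marrow in all 3 pairs and 20 (11.8%) were higher, against 14.5% and 24.2% of all genes. Of the 17 NK maturation genes described next, 11 were lower in all 3 pairs and none was higher. With the replicate block, limma called 0 of the NK cell genes over all probe sets or among the brighter ones. These differences accompany the B cell and neutrophil values above, and the part of those lineages in them was not tested.

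Of the NK maturation genes, 17 measured, 6 did not overlap in the lower direction and none in the higher, and the median change was -0.34 (-0.32 without bone marrow replicate 3), between -0.45 and -0.29 over 35 settings. S1pr5, the receptor that guides NK cells out of bone marrow, read 811, 324 and 641 in spleen (592 ± 247, SD, n = 3) and 186, 111 and 154 in bone marrow (150.1 ± 37.7, SD, n = 3). The change was -1.91 ± 0.34 (-1.95 without bone marrow replicate 3), with a limma adjusted p of 0.263, 0.178 among the brighter probe sets and 0.0250 to 0.615 over the alternatives. Spleen replicate 2 was the lowest spleen array and the nearest to bone marrow, so leaving it out enlarges the change. S1pr5 passed in 1 of 34 alternatives, the fit among the brighter probe sets without that array (limma adjusted p = 0.025). The mature IL15tg spleen arrays were higher than both, at 2313, 2416 and 1981.

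Itgam, the integrin CD11b acquired late by NK cells, read 54.1, 48.8 and 64.2 in spleen and 37.4, 40.6 and 40.4 in bone marrow (change -0.49 ± 0.12, limma adjusted p = 0.309), all far below IL15tg spleen at 338, 409.8 and 386. Zeb2, a factor of terminal NK maturation, read 389, 151 and 306 in spleen and 177, 122 and 158 in bone marrow; the groups overlapped, and bone marrow was lower in each pair of equal replicate number (change -0.80 ± 0.34, limma adjusted p = 0.450, 0.339 with the replicate block). Spn, the sialophorin CD43, read 2009, 1938 and 1756 in spleen and 1463, 1588 and 1363 in bone marrow without overlap (change -0.37 ± 0.08, limma adjusted p = 0.287). Klrg1, a receptor of mature NK cells, read 1209, 3569 and 1633 in spleen and 995, 3105 and 442 in bone marrow, so that replicate 2 was the highest in each organ; the organs overlapped, and bone marrow was lower in each pair (limma adjusted p with the replicate block = 0.527).

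Il18r1, the receptor chain through which interleukin 18 acts, had the other large difference among NK cell genes. It read 561, 192 and 654 in spleen and 101, 111 and 173 in bone marrow (change -1.73 ± 0.45, -1.96 without bone marrow replicate 3; limma adjusted p = 0.325, 0.0250 to 0.728 over the alternatives). As with S1pr5, spleen replicate 2 was the lowest spleen array and the nearest to bone marrow. Il18r1 also passed in 1 of 34 alternatives, the fit among the brighter probe sets without that array (limma adjusted p = 0.025). Klrb1b, an inhibitory lectin-like receptor, read 523, 347 and 671 in spleen and 191, 226 and 320.3 in bone marrow (change -1.05 ± 0.27, limma adjusted p = 0.319). Ifng, the interferon gamma gene, read 504, 586 and 858 in spleen and 324, 328 and 212 in bone marrow (change -1.16 ± 0.24, -0.96 without bone marrow replicate 3; limma adjusted p = 0.280). None of these 3 genes overlapped between the organs.

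Slamf6, a receptor of the SLAM family present on early NK cells, lay the other way, at 318, 326 and 304 in spleen and 536, 394 and 595 in bone marrow (change 0.67 ± 0.15, limma adjusted p = 0.296). In mature IL15tg spleen it read 43.2, 48.5 and 51.5. Xcl1, a chemokine of NK cells, read 719.9, 711 and 763 in spleen and 1038, 854 and 1932 in bone marrow without overlap, and its change was 0.71 ± 0.28, and 0.37 without bone marrow replicate 3. The inhibitory and activating receptors Klrd1, Klrc1, Klrk1, Klra7 and Klra8 overlapped, at changes of -0.51, -0.97, -0.01, -0.13 and 0.01.

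The cytotoxic granule genes had a median change of -0.05 over 25 genes (-0.11 without bone marrow replicate 3). Limma called 0 of them, 7 had an unadjusted p below 0.05, all lower, and 3 did not overlap in the lower direction and none in the higher. Prf1, which encodes perforin, read 2576, 2721 and 1802 in spleen and 1920.0, 1739 and 1685 in bone marrow. Gzmb, granzyme B, read 3706, 7251 and 5011 in spleen and 1688, 4623 and 3024 in bone marrow, which overlapped although bone marrow was lower in each pair of equal replicate number (change -0.84 ± 0.37, limma adjusted p = 0.462, 0.339 with the replicate block). Gzmk, high in the immature cells and at 247, 239 and 225 in IL15tg spleen, read 3626, 3874 and 3619 in spleen and 3533, 3568 and 3524 in bone marrow. Its groups did not overlap, although the change was only -0.06 ± 0.06. Among transcription factors the median change was -0.07 over 29 genes: Tbx21, the partner of Eomes in NK maturation, read 1029, 701 and 791 in spleen and 849, 418 and 676 in bone marrow, lower in each pair (limma adjusted p = 0.537, 0.419 with the replicate block), and Gata3, Id2 and Ikzf3 had log2 differences of 0.00, -0.18 and -0.01. Sox4, a factor of immature lymphocytes, read 929, 349 and 634 in spleen and 870.0, 300.0 and 643 in bone marrow, so the replicates of equal number lay close together.

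**Figure D5:**
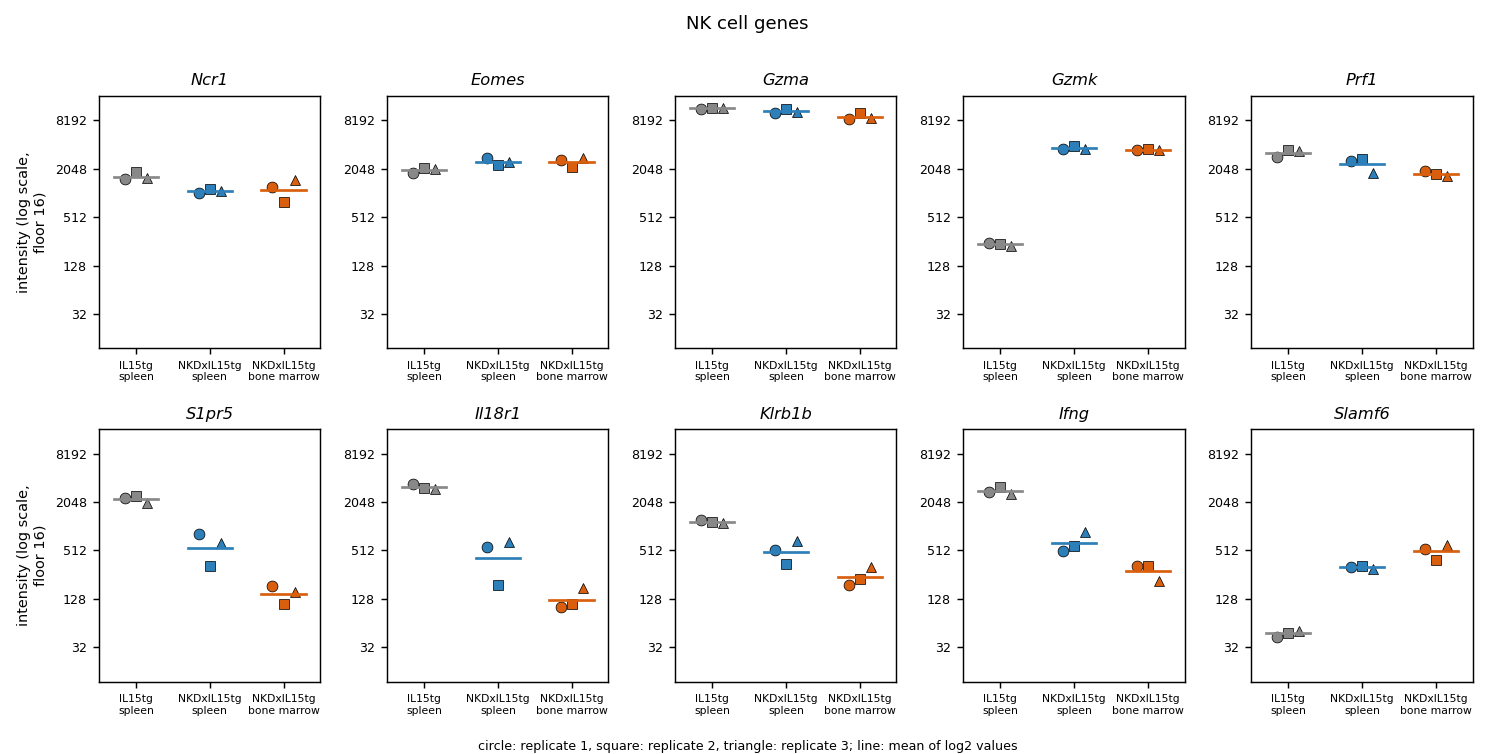
Intensity on a log scale (vertical axis, floored at 16) of 10 NK cell genes in IL15tg spleen (grey), NKDxIL15tg spleen (blue) and NKDxIL15tg bone marrow (orange); circles, squares and triangles are replicates 1, 2 and 3 and the line is the mean of log2 values. Ncr1, Eomes, Gzma and Prf1 overlap between the immature groups. S1pr5, Il18r1, Klrb1b and Ifng are lower and Slamf6 higher in bone marrow without overlap. Gzmk is also lower without overlap, at a change of only -0.06. None of the 10 was called by limma with all arrays.

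Most genes of cell division had higher values in bone marrow, and none passed the test. Of 43 measured, 41 changes lay above 0 with and without bone marrow replicate 3, 24 genes did not overlap in the higher direction and none in the lower. Limma called 0 of them, and 22 had an unadjusted p below 0.05 (21 higher and 1 lower). The median change was 0.53 (0.56 without bone marrow replicate 3; 0.33 to 0.66 over 35 settings). Mki67, the proliferation antigen, read 518, 878 and 1043 in spleen and 1348, 1386 and 1336 in bone marrow (change 0.80 ± 0.31, limma adjusted p = 0.430). Spleen replicate 1 was the lowest and the bone marrow arrays were nearly equal. Top2a, the topoisomerase that untangles replicated DNA, read 547, 939 and 939.6 in spleen and 1362, 1438 and 1145 in bone marrow, and the mitotic kinase Cdk1 read 378, 842 and 705 in spleen and 1001, 1171 and 954 in bone marrow. Mcm7, a subunit of the replicative helicase, read 1361, 1344 and 1308 in spleen and 1962, 1855 and 2162 in bone marrow (change 0.57 ± 0.07, limma adjusted p = 0.161). Pcna, the DNA polymerase clamp, overlapped. Neutrophil precursors also divide, and the part of the neutrophil values above in these differences was not tested.

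Immediate-early and stress genes had a median change of -0.17 over 33 genes, with 3 without overlap in the lower direction. Dusp1, a phosphatase induced by stress, read 450.3, 896 and 574 in spleen and 423, 277 and 153 in bone marrow (change -1.23 ± 0.40, -0.84 without bone marrow replicate 3), and Fos read 101, 337 and 365 in spleen and 125, 76.6 and 77.8 in bone marrow and overlapped. Among interferon-stimulated genes the median change was -0.06 over 27 genes. Rsad2, the antiviral protein viperin, read 299, 423 and 356 in spleen and 127, 228 and 134 in bone marrow (change -1.18 ± 0.23, limma adjusted p = 0.279).

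Macir and Matn2, in none of the lists, completed the calls. Macir, a regulator of macrophage function, read 573, 462 and 522 in spleen and 278, 252 and 258 in bone marrow, a change of -0.98 ± 0.09 (limma adjusted p = 0.0903, 0.0200 among the brighter probe sets, 0.0200 to 0.442 over the alternatives). The called Matn2 probe set read 131, 136 and 137 in spleen and 56.0, 48.0 and 49.5 in bone marrow, a change of -1.40 ± 0.09 (limma adjusted p = 0.0158, 1.66e-05 to 0.397 over the alternatives). IL15tg spleen was at or near the floor, at 12.6, 19.0 and 15.5. The lowest adjusted p came with a floor of 64. That floor raised every bone marrow and IL15tg spleen value of this probe set to 64 and so removed the spread within both groups. The brighter Matn2 probe set read 475, 429.9 and 556 in spleen and 184, 172 and 159 in bone marrow and did not pass among the brighter probe sets (limma adjusted p = 0.0666).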

How the data were processed

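The authors deposited 1 table of intensity values for 45101 Affymetrix probe sets on 9 arrays, 3 a group; the summarisation, scaling and software behind these linear intensities are not given in the sources used here. Here 64 control probe sets were left out, values below 16 (4.35%) were raised to 16, and log2 was taken. Of the probe sets, 34945 had 1 gene symbol, 932 several and 9160 none. Arrays give no read depth, so their number limits the precision. Means of the 3 groups were fitted by limma 3.58.1 under R 4.3.3 with moderated variances (2-sided, adjusted over all probe sets by Benjamini-Hochberg, threshold 0.05). The fit was also run on simulated data with independent noise. These held no array like bone marrow replicate 3 and no deviations shared by replicates, so the run does not cover those features. Among probe sets with 1 symbol, the one with the highest mean stood for its gene.

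The members, the gene lists and the tests were chosen with earlier results of these data known. The 24 lists held 473 measured genes, and 52 listed symbols were not matched. Named genes were each list's defining members, up to 4 called members a list and the 10 largest called changes in each direction; the others were named after their values were seen. Replicate numbers are shared by the organs in the labels, with no statement of what they mark. Between the NKDxIL15tg groups, deviations from the group means correlated at 0.319, 0.224 and 0.194 for equal numbers 1, 2 and 3. Unequal numbers gave -0.281 to -0.021. Deviations within a group of 3 sum to 0, which ties these values together, so they cannot decide whether the samples were paired. A fit with the number as a block was run as an alternative to the fit without one. It also blocked the IL15tg spleen arrays by number, for which no such correlation was computed. Alternatives changed the floor, scaling, filter, weights, arrays and block. RefSeq promoters of GRCm38.p6 were searched for 2 motifs.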

Additional observations from a re-analysis of the deposited data

How the results depend on the processing

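Named genes called under any alternative kept their direction under all of them, whereas 37 of the 160 named genes, none of them called under any alternative, took both signs. Over the alternatives, 4991 of the values stayed on their side of the threshold or within the replicate spread, 121 passed it and 61 moved by more than the spread. Against 2 probe sets called, a floor of 64 gave 5, a floor of 4 gave 15, and scaling to the 75th percentile gave 0 (lowest limma adjusted p of 0.0685; 4278 with an unadjusted p below 0.05). Leaving out 1 array gave 0 to 11 over all probe sets. The filter gave 14, and with it, in combinations chosen after seeing the data, scaling to the 75th percentile gave 19, quantile normalization 13 and the 6 arrays alone 13, while leaving out 1 array gave 1 to 15. The replicate block gave 0 over all probe sets, also without bone marrow replicate 3 (0; chosen after seeing the data), and 23 with the filter. Of those 23, 13 are among the 14 passing without the block (Macir no longer passed), and the others include Camp, Ngp, Cybb, Mgst1, Apol11b and a probe set of Lyz1. Without bone marrow replicate 3, scaling gave 0.

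Of the list genes, 0 were called with all probe sets, 7 with the filter, 7 with a floor of 4, 2 with the 6 arrays, and 0 to 4 without 1 array. With the filter, 10 were called under the replicate block, 9 under scaling, 7 under quantile normalization, 4 with the 6 arrays and 0 to 7 without 1 array. With the mean over a gene's probe sets, 8 were called. Of the list medians, 764 values stayed within the replicate spread and 38 moved; the Ly49 median ranged from -0.45 to 0.23, and several other medians near 0, such as those of NK immaturity genes and of NK cytokines, also took both signs. Scaling to the 75th percentile moved the median change of all probe sets from 0.03 to -0.04. Signal near the floor limits what can be read of Pou2af1, Ms4a1 and Cr2 in bone marrow: with a floor of 64 their changes were -0.27, -1.13 and -0.03. Other dim genes were limited as well: the same floor took Cd79b from -1.37 to -0.03, H2-Ob from -1.13 to 0.0 and Itgam from -0.49 to 0.0. With 3 arrays a group, an exact permutation test cannot give a p under 0.1.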

Other observations

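Several genes outside the lists were lower in bone marrow without overlap between the organs. They were chosen after their values were seen and are given as values only. Fcmr, the IgM Fc receptor of B cells, read 57.6, 56.6 and 48.3 in NKDxIL15tg spleen and 20.2, 20.4 and 20.6 in bone marrow. Ccr6, a chemokine receptor of B cells and some T cells, read 67.6, 68.3 and 84.3 in spleen and 30.3, 29.0 and 25.0 in bone marrow. Klf12, a transcription factor, read 355, 277 and 415 in spleen and 174, 137 and 120.5 in bone marrow, against 534, 451 and 467 in IL15tg spleen. Also lower was Apol11b, an apolipoprotein L family gene, which read 242, 359 and 233 in spleen and 81.7, 150.3 and 69.7 in bone marrow and passed limma among the brighter probe sets with the replicate block (adjusted p = 0.0334), where its other probe set passed too (adjusted p = 0.0469). As3mt, an arsenic methyltransferase, read 159, 74.7 and 144 in spleen and 58.8, 50.5 and 54.2 in bone marrow, and Elovl7, a fatty acid elongase, read 521, 305 and 453 in spleen and 207, 202 and 197 in bone marrow. Both passed limma among the brighter probe sets without NKDxIL15tg spleen replicate 2 (adjusted p = 0.025 for As3mt, and 0.025 and 0.0495 for the 2 probe sets of Elovl7). In the values given, that array was the lowest spleen array and the nearest to bone marrow for both genes.

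In the other direction, Fpr2, a formyl peptide receptor of neutrophils, read 42.9, 51.8 and 101 in spleen and 101, 241 and 519.6 in bone marrow, and Mcemp1, a membrane protein of mast cells and myeloid cells, read 49.3, 57.8 and 90.4 in spleen and 108, 238 and 367 in bone marrow. Aldh2, mitochondrial aldehyde dehydrogenase, read 229.7, 198 and 269.6 in spleen and 419, 652 and 596 in bone marrow, against 475, 503 and 562 in IL15tg spleen.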
